A study of Homo sapiens with 12 samples.

Results

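The block described here is a gene-poor stretch of band 14q21, from 39550000 to 44720000 on chromosome 14 (hg38, 5.17 Mb), with far more H3K9me3 peaks in SMARCA3-knockout than in wild-type 293T cells. Its members are all regions of the deposited peak lists whose midpoint lies between these bounds, 342 of 112068 in all. They comprise 297 of the 65170 peaks of the knockout (KO) list and 45 of the 46898 peaks of the wild-type (WT) list. The block was chosen by the number of peaks in each list, so the counts, overlaps, widths and enrichments below describe it and were not tested. The series holds ChIP-seq of trimethylated lysine 9 of histone H3 (H3K9me3) from 293T cells of genotype SMARCA3_KO and of genotype WT, with 3 ChIP and 3 input libraries each, 12 in all. No treatment, time point or other allele is given for either genotype, and how the knockout was made, or from how many clones, is not stated in the labels. 293T is a human embryonic kidney line that carries the SV40 large T antigen. SMARCA3, now named HLTF, is a SNF2-family DNA translocase with a RING domain, which the series title presents as a ubiquitin ligase for histone H3. The peak lists hold no measure of SMARCA3 itself, so the knockout was not checked. Each genotype has 1 list, so no difference between KO and WT has a replicate check. Intervals are Wilson intervals at 95%, cover the counting of peaks only and treat neighbouring peaks as independent. Read depth is unknown.

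H3K9me3 is written by methyltransferases such as SETDB1 and the SUV39H enzymes and is read by HP1 proteins, which hold chromatin in a compact state. The mark can cover repeats and long stretches with few genes as broad domains made of many small enriched sites. In RefSeq the block holds 2 protein-coding genes. LRFN5 encodes a leucine-rich repeat adhesion protein of the synapse, and FSCB encodes a protein of the fibrous sheath of the sperm tail. The other annotated units are 17 long noncoding RNA genes, 13 pseudogenes and 1 snoRNA gene. The lower and the upper flank of the same length hold 30 and 18 protein-coding genes.

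RefSeq promoters (GRCh38.p14, 250 bases before to 50 after the start) were on hand for 8 genes of the block, and 4 are shown because they mark how the KO peaks lie around gene starts. The LRFN5 start (chr14:41606626-41606925, plus strand) had no peak in either list, and the nearest peak was 63349 bp away in KO and 130046 bp away in WT. The FSCB start (chr14:44507234-44507533, minus strand) lay among KO peaks but under none, at 13768 bp from the nearest KO peak and 129952 bp from the nearest WT peak. The start of the noncoding LOC105370470 (chr14:43308395-43308694, plus strand) was 63 bp from a KO peak and 30536 bp from any WT peak. In these sequences the capitals mark CG dinucleotides. The start of the noncoding LOC124903307 (chr14:43316736-43317035, plus strand) was the only one of these with a peak over it, a KO peak of fold enrichment 3.20, and there the capitals mark the 111 bases under that peak.
LRFN5: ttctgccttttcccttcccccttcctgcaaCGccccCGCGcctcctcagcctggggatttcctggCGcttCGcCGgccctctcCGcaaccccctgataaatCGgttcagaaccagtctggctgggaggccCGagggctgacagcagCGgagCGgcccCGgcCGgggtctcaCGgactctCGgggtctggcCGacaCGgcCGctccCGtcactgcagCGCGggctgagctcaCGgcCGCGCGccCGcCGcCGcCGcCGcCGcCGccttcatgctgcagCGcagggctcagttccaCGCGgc
FSCB: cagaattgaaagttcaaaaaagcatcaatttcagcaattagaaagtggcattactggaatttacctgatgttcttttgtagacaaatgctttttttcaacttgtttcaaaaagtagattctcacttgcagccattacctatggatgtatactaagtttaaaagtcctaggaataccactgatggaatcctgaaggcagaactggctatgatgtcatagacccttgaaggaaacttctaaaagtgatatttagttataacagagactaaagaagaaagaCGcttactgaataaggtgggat
LOC105370470: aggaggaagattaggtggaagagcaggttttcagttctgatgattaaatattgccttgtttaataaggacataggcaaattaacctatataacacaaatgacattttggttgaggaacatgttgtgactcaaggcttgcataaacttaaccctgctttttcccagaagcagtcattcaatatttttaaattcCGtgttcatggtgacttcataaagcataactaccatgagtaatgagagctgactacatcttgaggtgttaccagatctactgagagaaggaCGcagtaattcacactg
LOC124903307: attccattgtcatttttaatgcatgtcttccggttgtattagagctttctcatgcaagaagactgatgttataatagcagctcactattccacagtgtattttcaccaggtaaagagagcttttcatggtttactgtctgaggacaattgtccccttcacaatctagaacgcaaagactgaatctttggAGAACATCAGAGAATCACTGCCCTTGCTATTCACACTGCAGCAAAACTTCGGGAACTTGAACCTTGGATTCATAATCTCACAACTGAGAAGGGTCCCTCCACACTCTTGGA
The LRFN5 promoter is 72.3% G and C with 35 CG dinucleotides, a number reached by 14.1% of the 35116 promoters of the table. The FSCB promoter holds 1 CG and is 34.7% G and C, and 96.0% of promoters hold at least 1. LOC105370470 and LOC124903307 have 2 and 3 CG dinucleotides, against a median of 14 over all promoters. Of the 8 genes 7 had at most 4 CG dinucleotides in each promoter, and 6 of these 7 had no KO peak over it, as LRFN5 had none.

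Across the block, KO had 297 peaks covering 137970 bases, against 45 peaks covering 23525 bases in WT. The ratio was 6.60 for peaks (4.83 to 9.02) and 5.86 for bases. Peak density was 57.4 per Mb in KO and 8.70 per Mb in WT, and peaks covered 2.67% and 0.455% of the block. On the rest of chromosome 14 the ratio of peaks was 1.42 (1.32 to 1.54), with 1588 KO and 1116 WT peaks, and on the other chromosomes it was 1.38. The lower flank held 96 KO peaks against 72 in WT (ratio 1.33, 0.983 to 1.81). The upper flank held 46 KO peaks against 61 in WT (ratio 0.754, 0.515 to 1.10), so both intervals include equal numbers. Because the block was chosen on these counts, the drop in KO peaks towards the flanks is partly built into it.

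Within the block the KO peaks were not spread evenly. In windows of 100 kb counted from the lower bound, the longest run with at least 4 KO peaks in every window spanned 25 windows from 42050000 to 44550000. This dense stretch, 2.50 Mb long and set after the values were seen, held 263 KO peaks against 25 in WT (ratio 10.5, 7.0 to 15.8). The 2.50 Mb of the block below it, with LRFN5 inside, held 31 KO peaks against 20 in WT (ratio 1.55, 0.890 to 2.70). The 0.170 Mb above it held 3 KO peaks and no WT peak. KO density was 105 peaks per Mb in the dense stretch and 12.4 per Mb below it, whereas WT density was 10.0 and 8.00 per Mb. The bounds of the stretch were set by the KO counts, so the KO step at its edges is part of its definition. By bases, KO peaks covered 5.01% of the stretch and 0.457% of the part below it, and WT peaks covered 0.631% and 0.310%.

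**Figure D1:**
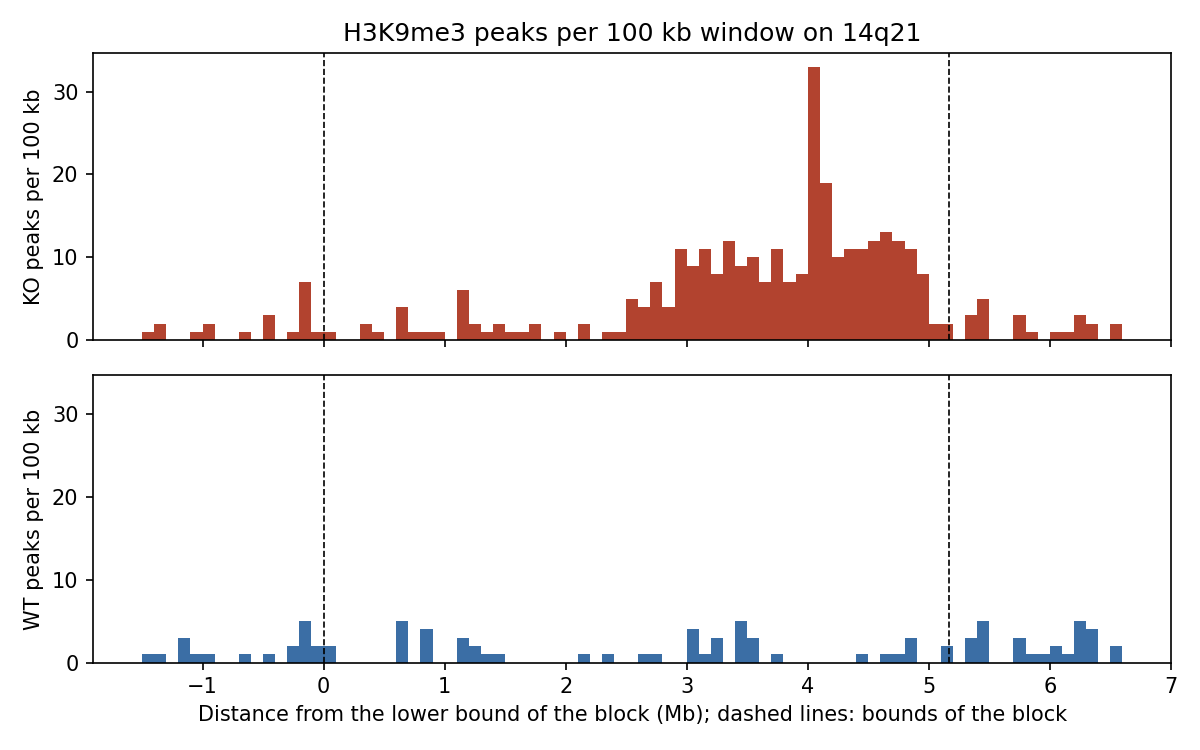
H3K9me3 peaks per 100 kb window in KO (top) and WT (bottom), by distance in Mb from the lower bound of the block, with the bounds as dashed lines. KO windows of the dense stretch hold 4 to 33 peaks, and WT windows there hold 0 to 5.

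A window was called higher in KO where its KO peak bases were at least 2 times its WT bases and at least 1 kb more. This held for 23 of the 44 full windows of the block with a peak (52.3%), against 20.9% of 17824 windows over all chromosomes. All 23 lay in the dense stretch, and none of the 18 windows with a peak below it met the rule. The stretch was defined by its KO counts, so the place of these windows was largely set by that definition. By the same rule in the other direction, 0 of the 44 windows were lower in KO, against 2.43% over all chromosomes. In 4 of the 44 windows KO had fewer peak bases at all, against 22.1% of windows over all chromosomes, and these 4 lay below the dense stretch. The largest such deficit lay from 40.35 to 40.45 Mb, with 788 KO and 1492 WT bases. The others were 39.55 to 39.65 Mb, with 284 KO and 749 WT bases, 40.15 to 40.25 Mb, with 1231 and 1434, and 40.85 to 40.95 Mb, with 390 and 451. Of the 25 windows of the dense stretch, 13 had KO peaks and no WT peak.

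The window with the largest gain, from 43.55 to 43.65 Mb, held 33 KO peaks with 20990 bases and no WT peak. Its upper neighbour, from 43.65 to 43.75 Mb, followed with 19 KO peaks, 10679 bases and no WT peak. Together these 200 kb held 52 KO peaks, 17.5% of the KO peaks of the block and 23% of their bases, and KO peaks covered 15.8% of them. None of the 52 met a WT peak, which follows from the absence of WT peaks in both windows. Their fold enrichment ran between 2.57 and 4.90 with a median of 3.66, and 7 exceeded 1 kb. The next largest gains were 6143 bases at 42.85 to 42.95 Mb (12 KO peaks, no WT peak), 5509 at 43.85 to 43.95 Mb (11 and none) and 5341 at 44.05 to 44.15 Mb (12 and none). Without the 200 kb of the 2 leading windows, the dense stretch had 211 KO peaks against 25 in WT (ratio 8.44, 5.59 to 12.7).

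The fold enrichment and the q-value printed here are the authors' values for each peak within its own list. In KO the highest folds of the block were 5.05 at chr14:42570796-42572448, in the noncoding AL442163.1, then 4.90 at chr14:43611147-43611910 and 4.67 at chr14:43613829-43614396, both intergenic. They were followed by 4.60 at chr14:43596242-43597702, in a promoter class of AL358913.2, and 4.59 at chr14:43885140-43885794, intergenic. Of these 5 KO peaks, 3 lay in the window with the largest gain, and all but the first were KO-only. In WT the highest folds were 5.90 at chr14:43003004-43005112 (intergenic), 5.19 at chr14:44376540-44377282 (LINC02307) and 4.69 at chr14:40408378-40408768 (intergenic). The next were 4.64 at chr14:44346911-44348194 (LINC02307) and 4.40 at chr14:40960190-40960626 (LINC02315). All 5 of these WT peaks met a KO peak. The widest KO peak spanned 2611 bp (chr14:43638374-43640984), followed by 1834 and 1757 bp, and none of these 3 met a WT peak. The widest WT peaks spanned 2109, 1284 and 1223 bp, and each met a KO peak.

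**Figure D2:**
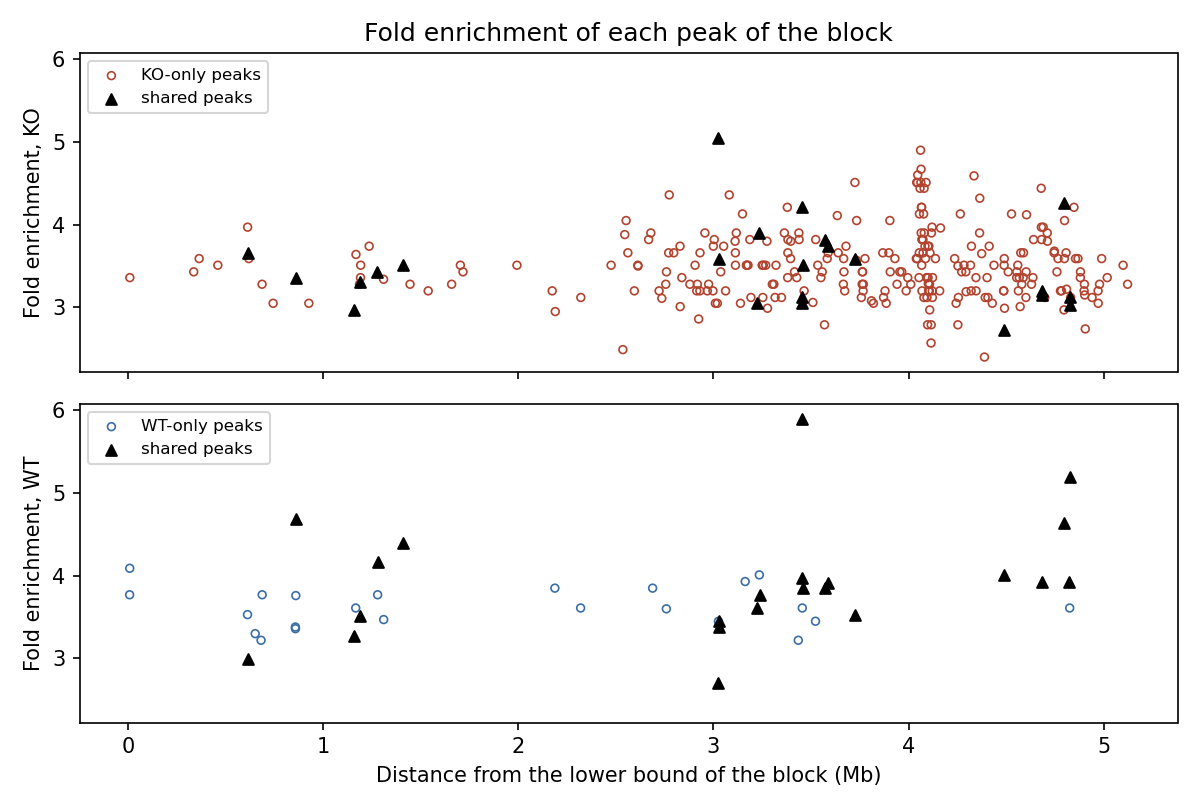
Fold enrichment of each peak, KO above and WT below, by distance in Mb from the lower bound of the block, with shared peaks as filled triangles and peaks of one list alone as open circles. Most KO peaks are open circles between folds 3 and 4, and the strongest WT peaks are shared.

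KO peaks of the block were weak and narrow as a group. Their median fold was 3.43 (quartiles 3.20 and 3.74), against 3.76 in WT (3.45 and 3.93). Over all chromosomes the medians were 3.59 in KO and 3.77 in WT. KO peaks had a median width of 371 bp and WT peaks one of 396 bp, where all chromosomes gave 530 and 483 bp. Peaks over 1 kb made up 4.38% of KO and 6.67% of WT peaks in the block, against 22.7% and 18% over all chromosomes. From fold 4 upward KO had 33 peaks and WT had 9 (ratio 3.67, 1.78 to 7.54), where all chromosomes gave a ratio of 1.10. All 33 KO peaks and 5 of the WT peaks of this class lay in the dense stretch (ratio 6.60, 2.66 to 16.4). In the whole block, KO had 10 peaks from fold 4.5 and WT had 4 (ratio 2.50, 0.830 to 7.53). From fold 5 there were 1 KO and 2 WT peaks. The median fold of KO-only peaks, 3.43, was that of all KO-only peaks on the chromosomes. Their median width was 366 bp in the block and 401 bp over all chromosomes, so the gap in width was smaller among KO-only peaks.

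The lists give different q-values to like folds, which bears on each count above. Around the median WT fold of the block (3.76, within 0.05), peaks over all chromosomes had a median q-value of 4.6e-08 in KO and 3.3e-06 in WT. Of the 274 KO-only peaks of the block, 260 (94.9%) had a fold at or above 3.01, the 10th percentile of the WT list, and 61 (22.3%) reached its median, 3.77. The same shares over all KO-only peaks were not counted, so these values do not set the block apart. The lists also differ in how fold values are distributed. Many values sit on an even ladder of steps, 0.0772 wide in KO and 0.0788 in WT. In the block 84.2% of KO and 71.1% of WT peaks were on that ladder, against 52.0% and 56.4% over all chromosomes. The part of the q-values or of the ladder in the block's excess was not tested.

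The next comparison asked whether KO and WT cells carried the mark at the same sites of the block. Sharing required an overlap of 1 bp or more between a KO and a WT peak. Of the 297 KO peaks 23 were shared (7.74%, 5.22 to 11.4), and 274 were KO-only (92.3%), against 49.4% KO-only over all chromosomes. Of the 45 WT peaks 22 were shared (48.9%, 35.0 to 63.0), and 23 were WT-only (51.1%), against 20.1% over all chromosomes. In the lower flank 49.0% of KO and 25% of WT peaks stood in one list alone, and in the upper flank 41.3% and 55.7%. The KO-only share was thus higher in the block than in either flank, and the WT-only share was close to that of the upper flank. With 45 WT peaks against 297 KO peaks, few KO peaks could have a partner. The high KO-only share therefore largely follows from the counts by which the block was chosen.

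**Figure D3:**
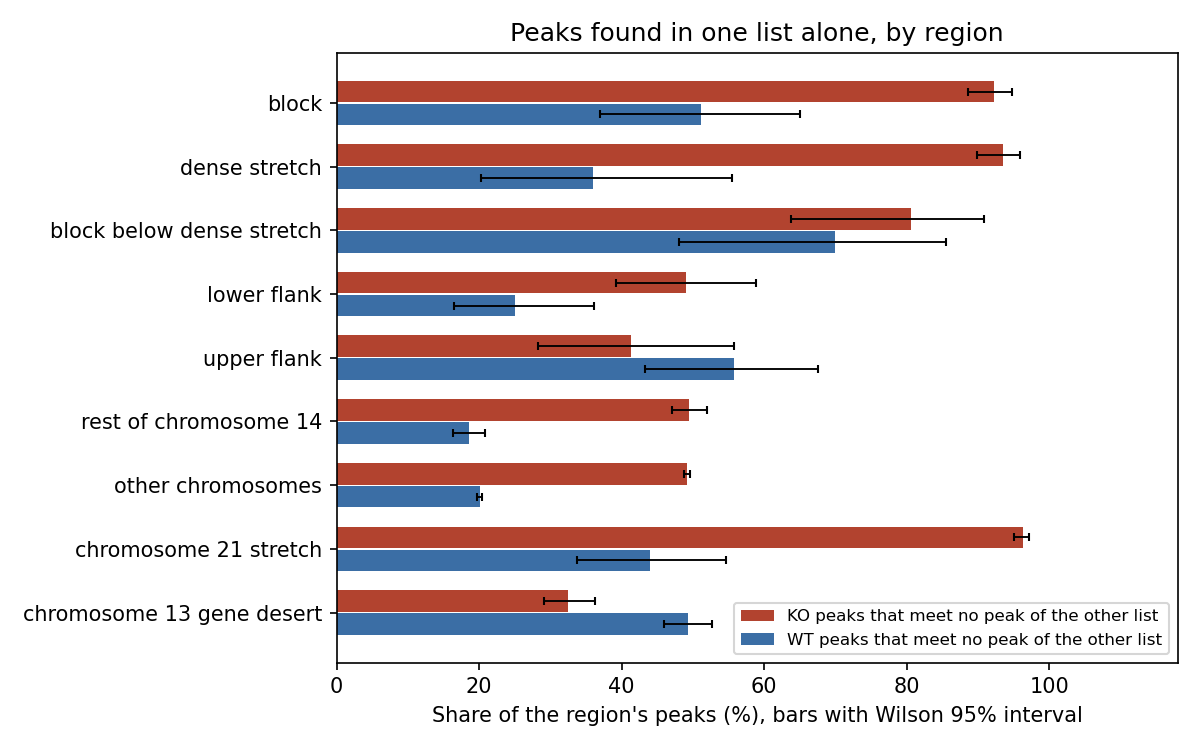
Share of KO and WT peaks (in percent, Wilson 95% intervals as error bars) that met no peak of the other list, by region. The KO bar stands at 92.3% in the block and 96.3% in the chromosome 21 stretch, and between 32.5% and 49.4% in the other regions outside the block.

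Peaks of one list alone lay very differently in relation to the other list. KO-only peaks were at a median of 73.0 kb from the nearest WT peak, and 15 of 274 (5.47%) were within 1 kb of one, against 26.4% of KO-only peaks over all chromosomes. WT-only peaks were at a median of 485 bp from the nearest KO peak, and 17 of 23 (73.9%) were within 1 kb, against 41.9% over all chromosomes. With sharing widened to 1 kb, 38 of 297 KO peaks (12.8%) and 39 of 45 WT peaks (86.7%) had a partner, against 63.6% of KO and 88.4% of WT peaks over all chromosomes. The WT share was thus close to that of the whole list, and the KO share was far below it. The low KO share and the long distances of KO-only peaks follow in large part from the few WT peaks of the block. Likewise, the nearness of WT-only peaks to KO peaks is partly set by the many KO peaks for which the block was chosen. The WT-only peak of highest fold, 4.09 at chr14:39557954-39558349, is close to the lower bound, and the next, 4.01 at chr14:42785029-42785399, is intergenic in the dense stretch.

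At the sites marked in both lists the KO fold was more often the lower of the pair. The 23 KO and 22 WT shared peaks formed 24 overlapping pairs. The fold was lower in KO in 18 of them (75%), with a median difference of -0.47 (KO minus WT), whereas over all chromosomes it was lower in KO in 44.4% of 40366 pairs, with a median difference of 0.13. The KO peak was the narrower one in 16 of 24 pairs (66.7%), against 28.1% over all chromosomes. The upper flank showed the same tendency, with a lower KO fold in 23 of 30 pairs and a median difference of -0.52, and the lower flank did not, with 18 of 58 and 0.27. The pair of widest difference in this direction joined a KO peak of fold 3.05 at chr14:43004714-43005151 to the WT peak of fold 5.90 at chr14:43003004-43005112. A KO peak of fold 4.21 (chr14:43003420-43004580) met the same WT peak. In the opposite direction, the KO peak of fold 5.05 in AL442163.1 met a WT peak of fold 2.70 at chr14:42571749-42572442. The block therefore combined many more KO sites with lower KO folds at most of the few sites that WT also carried.

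**Figure D4:**
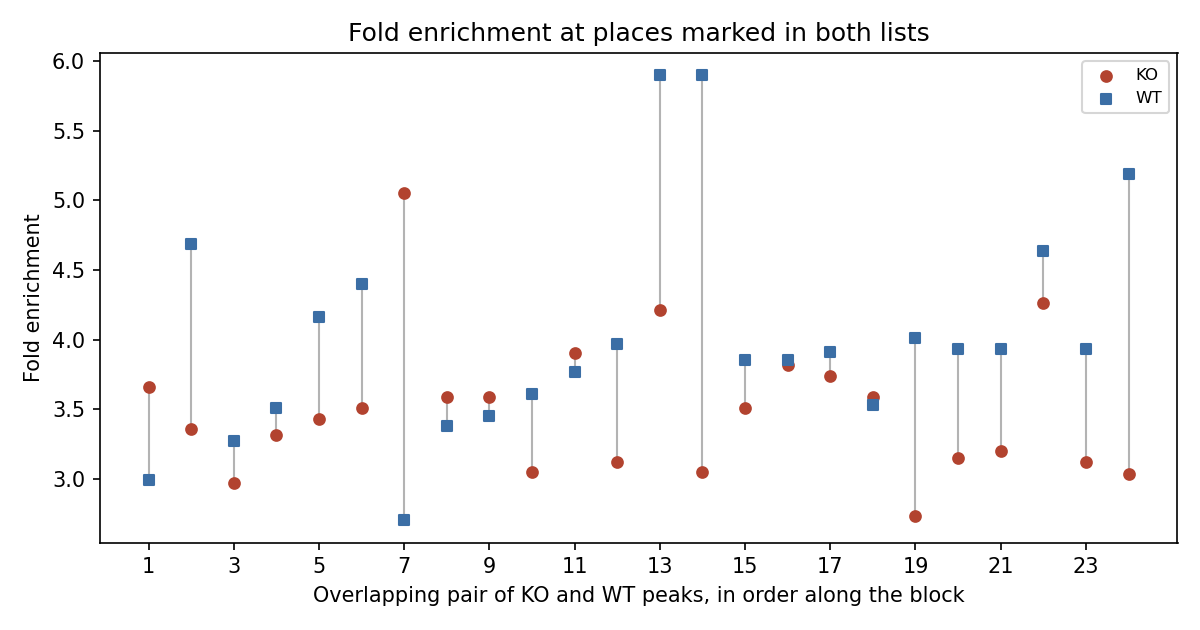
Fold enrichment of KO (circles) and WT (squares) at the 24 overlapping pairs of peaks, in order along the block. The KO value is below the WT value in 18 pairs.

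Most peaks of the block lay outside the genes of the deposited annotation. In the deposited annotation 200 of 297 KO peaks were intergenic (67.3%, 61.8 to 72.4), as were 32 of 45 in WT (71.1%, 56.6 to 82.3), against 48.2% and 47.9% over all chromosomes. The upper flank had 69.6% in KO and 72.1% in WT, and the lower flank 13.5% and 15.3%. On the chromosome 21 stretch the shares were 60.7% and 65.9%, so a high intergenic share was not particular to the block. Peaks in gene bodies numbered 87 in KO and 13 in WT. By type of gene, 62 KO and 7 WT peaks fell to lincRNA genes and 3 KO and 2 WT peaks to a protein-coding gene. The remaining genic peaks, 32 in KO and 4 in WT, belonged to other noncoding transcripts and pseudogenes in the authors' mixed class.

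The authors' gene column named 14 genes for these peaks, of which 13 are noncoding or pseudogenes. All 14 had a KO peak and 4 had a WT peak. They were named for a peak in a block chosen by its peak counts, so the shares that follow are partly set by that choice. A peak in KO alone was found at 10 of 14, against 23.8% of 9320 genes over all chromosomes, and 13 of 14 had more KO than WT peaks, against 54.7%. LINC02307 (ENSG00000258969, 43995781 to 44384545, minus strand), a long intergenic noncoding RNA gene in the upper part of the dense stretch, had the most. It carried 46 KO peaks with 20307 bases and 6 WT peaks with 4964 bases. Their median fold was 3.43 in KO and 3.97 in WT. Of the 46 KO peaks 40 were KO-only, against 92.3% of KO peaks in the block. Within 50 kb of the 5′ end of LINC02307 there were 9 KO and 4 WT peaks, and further along the gene there were 37 KO and 2 WT peaks. The WT peaks of LINC02307 were thus mostly near its 5′ end, and KO peaks ran along its length. AL442163.1 (ENSG00000258394, 42362983 to 42703655) had 20 KO peaks with 9172 bases and 4 WT peaks with 1839 bases. AL450442.1 (ENSG00000258850, 42412573 to 42528888), a lincRNA gene inside the bounds of AL442163.1 on the same strand, had 10 KO peaks of fold 2.86 to 3.90 and no WT peak. Because these transcripts overlap, the division of peaks between them is the annotation's. Over RefSeq gene bodies the counts differed: LINC02307 had 48 KO and 6 WT peaks, LINC02277 9 and 0, and LINC02315 3 and 1. Noncoding RefSeq genes with fewer KO peaks were LOC105370461 (2 and 4, running past the lower bound), LOC105370464 (1 and 2) and LOC105370465 (1 and 4).

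**Figure D5:**
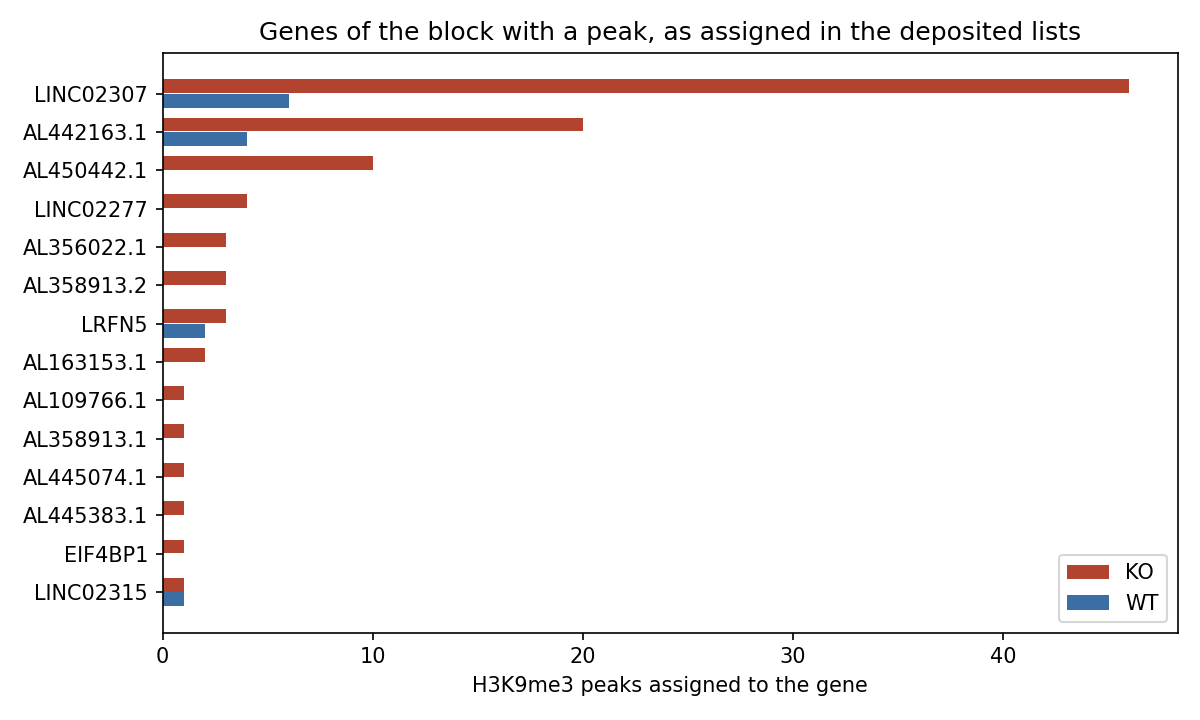
Number of H3K9me3 peaks assigned to each of the 14 genes of the block in the deposited lists, KO above WT. LINC02307 leads with 46 KO and 6 WT peaks, and 10 genes have KO peaks alone.

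LRFN5 (ENSG00000165379), the protein-coding gene with peaks, lies below the dense stretch. It had 3 KO peaks, of fold 3.20 (chr14:41723336-41723747), 2.95 (chr14:41739034-41739341) and 3.12 (chr14:41870169-41870448). Its 2 WT peaks had fold 3.85 (chr14:41736971-41737545) and 3.61 (chr14:41869087-41869357). No KO peak of LRFN5 met a WT peak, and all 5 peaks were under 1 kb wide. FSCB had no peak in either list. In the authors' gene column LINC02315, a lincRNA gene below the dense stretch, had 1 peak in each list. Their folds were 3.51 in KO and 4.40 in WT, and they overlapped. The 2 coding genes thus differed by 1 peak between the lists.

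Peaks in the authors' promoter classes numbered 10 in KO and 0 in WT, or 3.37% of KO peaks against 9.71% of KO peaks over all chromosomes. All 10 lay at noncoding genes or pseudogenes of the dense stretch. They were all KO-only, as were 93.5% of all KO peaks of that stretch. The 4 at AL358913.1 and AL358913.2, short transcripts in the window with the largest gain, had folds of 4.51, 3.59, 4.51 and 4.60. A KO peak of fold 4.51 (chr14:43274881-43275255) lay just inside AL445383.1 and over the body of the RefSeq pseudogene TUBBP3. A KO peak of fold 4.13 (chr14:44077572-44078096) covered the start of the pseudogene EIF4BP1. The other 4 were 2 at AL163153.1 (3.90 and 3.82) and 1 each at AL445074.1 (3.20) and AL109766.1 (3.01). In the authors' gene column LINC02277 and AL356022.1, near the upper edge, had 4 and 3 KO peaks inside them, no promoter peak and no WT peak.

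The coding genes around the block differed less between the lists. A list of 41 genes of 14q13-q21, which includes LRFN5 and FSCB, had a KO peak over the gene body at 13 and a WT peak at 14, against 23.7% and 20.9% of 20037 protein-coding genes. More KO than WT peaks were found at 6 of 41 and fewer at 5, against 13.2% and 5.63% of all, and the median number of peaks was 0 in both lists, as for all protein-coding genes. Nearest below the block, FBXO33, which encodes an F-box protein, had 7 KO and 4 WT peaks, and nearest above, DORIP1 had none. Over the whole list there were 86 KO and 64 WT peaks. Further below the block, NPAS3, a neuronal transcription factor gene, had 22 KO and 11 WT peaks. SLC25A21, which encodes a mitochondrial carrier, had 18 and 9, and MIPOL1 had 17 and 7. In the opposite direction, BRMS1L had 2 KO and 6 WT peaks and TTC6 had 3 and 6. Above the block MDGA2, which encodes a synaptic adhesion protein, had 2 KO and 5 WT peaks, and TOGARAM1, a gene of primary cilia, had 5 in each. Among 21 genes of synaptic leucine-rich repeat adhesion proteins, to which LRFN5 belongs, 5 had a KO peak and 4 a WT peak. LRRC4C had 4 KO peaks and no WT peak, LRRTM4 had 4 and 3, and the 4 other LRFN genes had none.

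The nearest peaks on either side of the bounds had folds between 2.36 and 5.19. The first and last KO peaks inside had folds of 3.36 (chr14:39558492-39558775) and 3.28 (chr14:44672710-44672987), and the first ones outside had 2.36 and 3.59. The first and last WT peaks inside had folds of 3.77 (chr14:39557409-39557761) and 5.19 (in LINC02307), and those just outside had 3.85 and 4.16. The last WT peak inside lay in the dense stretch, 4.83 Mb from the lower bound of the 5.17 Mb block, and so not at the upper bound.

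Of the other gene-poor regions compared, the stretch of chromosome 21 between 18 and 26 Mb resembled the block. The gene desert of chromosome 13 between 81 and 90 Mb did not. Both were known from earlier work on these lists. The chromosome 21 stretch was picked as a block of knockout peaks, so its high ratio and KO-only share were largely set by that choice. On chromosome 21, 1315 KO and 82 WT peaks gave a ratio of 16.0 with an interval from 12.8 up, 96.3% of KO peaks were KO-only, and the median KO width was 371 bp, the same as in the block. KO density was 164 per Mb there and 105 per Mb in the dense stretch of 14q21, and WT density was 10.2 and 10.0 per Mb. The median KO fold was 3.51 on chromosome 21 and 3.5 in the dense stretch. On chromosome 13, which is also poor in genes, there were fewer peaks in KO (667) than in WT (840), at a ratio of 0.794 (0.717 to 0.879), with a WT density of 93.3 per Mb. Windows of 100 kb with at least 8 KO peaks and no WT peak numbered 80 of the 17824 with a peak over all chromosomes. Of these 41 were on chromosome 21 and 15 on chromosome 14, 9 of them among the 44 full windows of the block with a peak. The block and the chromosome 21 stretch were chosen by such counts, so their part in this tally is largely set by that choice.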

How the data were processed

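H3K9me3 ChIP-seq of 293T cells was deposited as 1 peak list per genotype (KO and WT), from a series with 3 ChIP and 3 input libraries each. Per the submitters' processing notes, HISAT2 and the build hg38 were used. Neither the peak caller nor the joining of replicates is stated there. Per the file headers, the deposited values are a fold enrichment (a ratio) and a q-value for each peak. The lists hold no value per library, so depth and replicate spread are unknown and nothing was tested. The labels call the libraries of a group biological triplicates.

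Peaks were assigned to regions by midpoint, and starts were read as counted from 1. Overlap needed 1 bp. Values over all chromosomes cover the autosomes, X and Y. Peaks were counted as deposited, with no filter. Python 3.11.15, pandas 2.3.3, numpy 2.4.6 and scipy 1.17.1 were used, and the overlap code was tested on simulated data. RefSeq GRCh38.p14 supplied gene bodies and promoters. Sequence of the peaks themselves was not analysed here. The named genes are those with at least 5 peaks in either list or protein-coding, and further genes were named after their values were seen. The named peaks are the 5 of highest fold and the 3 widest per list, and the named windows are the 5 of largest gain and those with fewer KO bases. Members, lists and alternatives were chosen with earlier results of these data known.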

Additional observations from a re-analysis of the deposited data

How the results depend on the processing

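The ratio of KO to WT peaks in the block, 6.60, was 3.35 (bases 3.24) when peaks had to reach 3.69, the joint median fold. It was 4.69 in lists of equal length by highest fold. Such lists hold equal numbers of KO and WT peaks, whereas the full lists had a ratio of 1.39, so the backgrounds differ. Among peaks from fold 3.5 the ratio over all chromosomes was 1.16. From fold 5 the ratio in the block was 0.500 (bases 0.580), the opposite direction, on 1 KO and 2 WT peaks. With the dense stretch left out, an alternative chosen after seeing the data, it was 1.70 (bases 1.64). A q-value limit, merging within 1 kb, bounds moved by 250 kb and leaving out LINC02307 gave 5.20 to 9.0. Asking for 50% of both peaks to overlap gave shared shares of 3.37% in KO and 22.2% in WT (29.1% and 40.5% over all chromosomes). Counting partners within 1 kb gave 12.8% and 86.7% (63.6% and 88.4%), and lists of equal length gave 33.3% in WT (65.9%). The median fold was 3.59 in KO in lists of equal length and 3.88 in WT among shared peaks, and shared peaks had median widths of 455 bp (KO) and 648 bp (WT). The causes were not tested. The share of windows higher in KO was 55.0% in windows of 250 kb, against 25.4% over all chromosomes. In lists of equal length it was 51.2%, against 13.2%. No paired analysis was possible because the lists carry no library, so leaving out replicates was not run either.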

Other observations

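Elsewhere on chromosome 14, windows of 1 Mb with many KO and few WT peaks were also found near the lower end of the long arm. From 25 to 26 Mb there were 45 KO and 4 WT peaks, from 27 to 28 Mb 63 and 7, and from 28 to 29 Mb 52 and 6. The window from 26 to 27 Mb between them had 8 and 4. Inside the block, the windows from 42 to 43 and 43 to 44 Mb had 76 and 11, and 126 and 8. The window from 44 to 45 Mb, which runs past the upper bound, had 73 and 15. From 45 to 48 Mb, just above it, the windows had 12 and 18, 2 and 7, and 5 and 10.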
